A study of Mus musculus with 16 samples.

Results

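10 genes that mark intraepithelial lymphocytes were followed in RNA sequencing of mouse colonic epithelial cells: Cd3e, Cd3g, Cd3d, Cd8a, Cd7, Itgae, Gzma, Gzmb, Ccl5 and Trdc. They were chosen by name, and all 10 of 10 were found once each among the 56268 genes of the deposited table. The cells came from 4 groups of 4 libraries each, 16 in all. The cKO_DSS group carried floxed Rictor with the Villin-Cre transgene and received 3% dextran sulfate sodium (DSS), a sulfated polysaccharide that damages the lining of the colon and brings on colitis when drunk. The WT_DSS group carried Villin-Cre alone and received DSS. The cKO group carried floxed Rictor with Villin-Cre and received normal water, and the WT group carried Villin-Cre alone and received normal water. All groups thus carried Villin-Cre. The Villin promoter drives Cre in intestinal epithelium, and Rictor in lymphocytes was not measured separately. The protein belongs to mTOR complex 2, a kinase complex that responds to growth factors, and the study asked how that complex in the epithelium bears on colitis. The labels give neither age, strain nor sex, nor whether a library came from 1 mouse or from several, so p-values measure the spread between these samples, which may be technical.

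Intraepithelial lymphocytes are T cells that sit between the epithelial cells of the gut, on the luminal side of the basement membrane. Many carry CD8 alpha homodimers, many use the gamma delta T cell receptor, and most hold onto epithelium through the integrin CD103, which binds E-cadherin. They hold granzymes, the proteases that killer cells release into targets, ready made, and they depend on interleukin 15 from the epithelium. When epithelial cells are stripped from the colon, these lymphocytes come with them, so their transcripts appear at low level in an epithelial preparation.

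Each library held 13911823 to 16414914 reads, given back from the deposited FPKM values (fragments per kilobase of gene, scaled to library size). Epithelial markers dominated: the summed level of 12 colonic epithelial genes, with Krt8, Car1 and Krt19 the most abundant, ranged from 8747 to 13631 FPKM per library. The summed level of the 10 lymphocyte markers was 29.4 to 50.5 FPKM in cKO_DSS, 24.3 to 34.2 FPKM in WT_DSS, 18.8 to 40.3 FPKM in cKO and 25.9 to 29.99 FPKM in WT. The library label of these cells as epithelial was thus borne out by its defining markers. Rictor was at 1.92 to 2.96 FPKM in cKO_DSS against 2.82 to 4.16 FPKM in WT_DSS, and at 2.22 to 2.75 FPKM in cKO against 2.17 to 3.14 FPKM in WT, with no call between genotypes (limma adjusted p = 0.0761 after DSS and 0.582 on water). These whole-gene values still count transcripts that lack only the deleted exons, so they check the genotype labels in part. Libraries cKO_DSS 3 and 4 stood apart on the second principal component, at -33.9 and -32.2 against -17.1 to 21.2 in the other libraries. Reads of 4 Y-linked genes (Ddx3y, Eif2s3y, Kdm5d and Uty) numbered 2924 to 4533 in cKO_DSS and 2681 to 3533 in WT_DSS, against 0 to 1856 in cKO and 0 to 1377 in WT. No Y-linked read was found in cKO 3, cKO 4 and WT 3, and every water library held at least 10022 reads of Xist, which female cells express, against 0 to 4 in cKO_DSS and 1 to 5275 in WT_DSS. DSS and water libraries therefore differed in sex-linked transcripts as well as in treatment. WT 1, WT 2, WT 4, cKO 1, cKO 2 and WT_DSS 2 held both kinds, with 635 to 2681 Y-linked reads and 5275 to 21753 Xist reads. Whether these libraries pooled mice of both sexes was not tested.

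On mm10, Ccl5 lies on chromosome 11 from 83525778 to 83530518, Cd7 on chromosome 11 from 121036747 to 121039418, Itgae on chromosome 11 from 73090583 to 73147446, Cd8a on chromosome 6 from 71373427 to 71379173 and Trdc on chromosome 14 from 54142851 to 54148868. Levels in FPKM are per length and can be set beside each other. Over the 16 libraries, Ccl5 was highest with a mean of 9.26 FPKM, followed by Gzma at 6.66, Gzmb at 4.93, Cd7 at 3.92, Cd8a at 2.09 and Itgae at 1.83 FPKM. The 3 CD3 chains lay below 1 FPKM on average, Cd3e at 0.840, Cd3g at 0.818 and Cd3d at 0.702 FPKM, and Trdc, the constant region of the T cell receptor delta chain, was lowest at 0.285 FPKM. The SD over all libraries was 0.275 FPKM for Cd3e, 0.311 FPKM for Cd3g and 0.249 FPKM for Cd3d, so these neighbours in the order did not differ beyond their spread. Ccl5 and Gzma, with SDs of 3.40 and 2.63 FPKM, and Cd8a and Itgae, with SDs of 0.593 and 0.510 FPKM, did not either, and the ranges of all neighbours in the order overlapped. The order also changed between groups. Gzma stood above Ccl5 in WT_DSS (means of 7.504 and 6.55 FPKM), Itgae above Cd8a in cKO (1.94 and 1.75 FPKM) and Cd7 above Gzmb in WT (4.29 and 3.03 FPKM). These values rest on few reads: 60 to 260 reads per library for Ccl5, 54 to 199 for Gzma, 37 to 199 for Gzmb, but 7 to 35 for Cd3d and 8 to 32 for Trdc. For 7 reads the exact Poisson 95% interval runs from 2.81 to 14.4 reads, and for 8 reads from 3.45 to 15.8. These intervals cover counting error only.

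**Figure D1:**
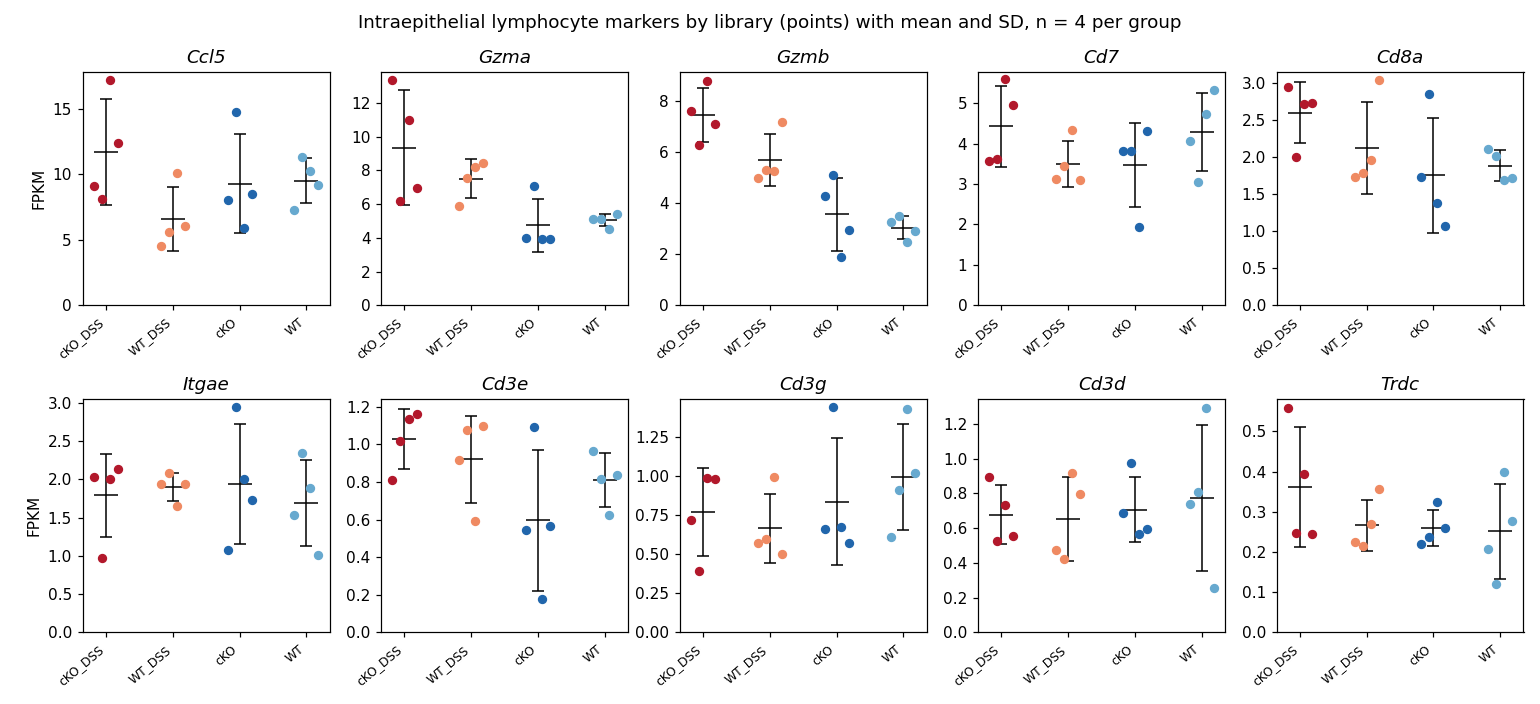
Level of each marker in FPKM (y axis, from 0, with its own scale in each panel) in the 4 groups (x axis), panels in order of mean level. Points are libraries and bars are the mean and SD of 4 libraries. In the Gzmb panel every DSS library of a genotype lies above every water library of that genotype, from 6.28 FPKM upward in cKO_DSS and from 4.97 FPKM upward in WT_DSS.

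DSS against water asks what colitis does to these markers, and the granzymes were the only members called. In WT the count of members called was near the share over all genes, as given below. Gzmb, granzyme B, a protease that triggers apoptosis in target cells by cleaving caspases and their substrates, rose with DSS in both genotypes. Gzma, granzyme A, a tryptase-like protease that acts without caspases, rose in cKO. The other members did not pass the test in either genotype. Since these are bulk libraries, fewer cells of a type and less RNA per cell cannot be told apart.

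In cKO_DSS, Gzmb was at 7.61, 6.28, 8.79 and 7.07 FPKM (162, 141, 199 and 161 reads), against 4.29, 5.11, 1.89 and 2.95 FPKM in cKO (94, 112, 37 and 59 reads). In WT_DSS it was at 4.97, 5.28, 5.25 and 7.19 FPKM (99, 109, 109 and 150 reads), against 3.26, 3.51, 2.47 and 2.89 FPKM in WT (70, 86, 53 and 62 reads). The groups did not overlap in either genotype, and cKO 3 was the lowest library of all. The log2 fold change with DSS, on the scale of log2(FPKM + 1), was +0.94 ± 0.19 SE in cKO (limma adjusted p = 0.00449, higher in 4 of 4 libraries than every cKO library) and +0.72 ± 0.19 SE in WT (limma adjusted p = 0.0128, likewise 4 of 4). That scale understates changes of low genes. With limma voom on the recovered reads the log2 fold changes were +1.13 and +0.89.

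For Gzma, cKO_DSS libraries held 13.3, 6.17, 10.97 and 6.96 FPKM (199, 97, 174 and 111 reads), against 3.97, 7.10, 3.95 and 3.93 FPKM in cKO (61, 109, 54 and 55 reads). cKO 2 lay within the range of the cKO_DSS libraries and the other cKO libraries lay below it. The log2 fold change in cKO was +0.83 ± 0.21 SE (limma adjusted p = 0.0146). In WT_DSS Gzma was at 5.87, 7.54, 8.18 and 8.42 FPKM (82, 109, 119 and 123 reads), against 5.12, 5.12, 4.52 and 5.39 FPKM in WT (77, 88, 68 and 81 reads). These groups did not overlap, yet the log2 fold change of +0.49 ± 0.21 SE did not pass the threshold (limma adjusted p = 0.0876). In a fit of the WT and WT_DSS libraries alone it passed (limma adjusted p = 0.0159, over alternatives 0.0159 to 0.739), and in a fit of the cKO and cKO_DSS libraries alone the call in cKO was lost (limma adjusted p = 0.0675, over alternatives 0.00528 to 0.563).

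The counts are set beside those over all genes. With DSS in cKO 2 of the 7 members in the fit were called higher, Gzma and Gzmb. Of the 13255 genes kept, 8.07% were called higher there and 14.7% in either direction. With DSS in WT 1 of the 7 was, Gzmb, where 15.0% were called higher and 28.5% in either direction, so this count was near the share over all genes. Groups that did not overlap, with DSS higher, were found for 1 of the 10 members in cKO and 2 in WT. These were Gzmb in both genotypes and Gzma in WT, all of them among the 7 members in the fit. Over the genes kept the shares were 10.1% and 15.5%. So few members allow no more than a rough comparison with these shares. Genes were kept when at least 4 libraries reached 1 FPKM, and 7 of the 10 members passed that filter. Cd3g, Cd3d and Trdc did not pass, so their values come from a fit without a filter and from voom.

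The rise of the granzymes with DSS came with a difference in Y-linked reads between water and DSS libraries. Within the DSS groups the order was mixed. cKO_DSS 2 had the most Y-linked reads of its group (4533) and the lowest Gzmb (6.28 FPKM). cKO_DSS 3 had the fewest (2924) and the highest Gzmb (8.79 FPKM). WT_DSS 4 had the most of its group (3533) and the highest Gzmb (7.19 FPKM). Gzmb was 2.47 FPKM in WT 3, 1.89 FPKM in cKO 3 and 2.95 FPKM in cKO 4, the water libraries without Y-linked reads, and 2.89 to 5.11 FPKM in the other 5 water libraries. With Y-linked level added to the fit as a covariate, the Gzmb log2 fold change was +0.31 in cKO and +0.18 in WT, with limma adjusted p = 0.609 and 0.633, the highest over its alternatives, whose lowest were 0.00192 and 0.00488. Without WT 3, cKO 3 and cKO 4 it was +0.56 in cKO (limma adjusted p = 0.054), and Gzma in cKO was +0.65 (limma adjusted p = 0.197). Treatment and sex-linked level cannot be told apart in this design. The mitochondrial share of reads differed too, at 4.74 to 6.95% in cKO_DSS against 7.67 to 15.1% in cKO, highest in cKO 3, and at 5.56 to 7.34% in WT_DSS against 7.66 to 11.3% in WT, with no overlap in either genotype. Across genes, the Spearman correlation of GC content with the DSS fold change was 0.0546 in cKO and -0.53 in WT, and after GC correction Gzmb was +0.96 in cKO and +0.61 in WT (limma adjusted p = 0.00351 and 0.0386). The part of the mitochondrial share in the granzyme result was not tested. Leaving out WT 4 and WT_DSS 2 also ended the Gzmb call in WT, at +0.73 (limma adjusted p = 0.0584).

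**Figure D2:**
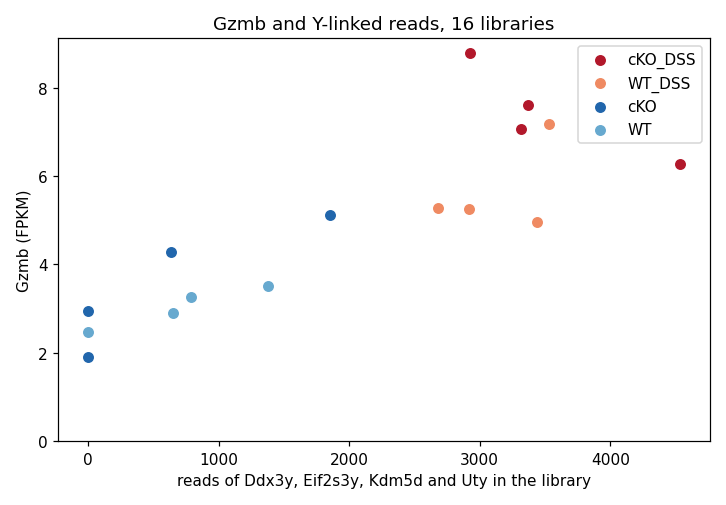
Gzmb in FPKM (y axis) against the reads of 4 Y-linked genes in the library (x axis), one point per library, coloured by group. DSS libraries lie at 2681 reads or more and at 4.97 FPKM or more, while water libraries lie at 1856 reads or fewer, 3 of them at 0 reads.

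The promoters of the granzyme genes are shown because Gzma and Gzmb were the members called with DSS. Windows from 250 bases before to 50 after the transcription start come from RefSeq on GRCm38.p6 (mm10) and were given for 6 of the 10 members (Cd3e, Cd3g, Cd3d, Cd8a, Gzma and Gzmb). In the deposited table Gzma lies on mm10 chromosome 13 from 113093825 to 113100981 and Gzmb on chromosome 14 from 56258838 to 56262260, both on the minus strand, so the RefSeq start of Gzmb lies upstream of the gene's end in that table. The Gzma window is chr13:113100932-113101231 on the minus strand and the Gzmb window is chr14:56262285-56262584 on the minus strand. Both are written 5′ to 3′, with capitals at matches to any of 6 motifs searched on both strands: a Runx motif (TGTGGT), an AP-1 motif (TGANTCA), a CRE-type motif (TGACGT), the core promoter element TATAAA, the GAS motif (TTCNNNGAA) and an ISRE core (a pair of GAAA blocks 2 bases apart).
Gzma: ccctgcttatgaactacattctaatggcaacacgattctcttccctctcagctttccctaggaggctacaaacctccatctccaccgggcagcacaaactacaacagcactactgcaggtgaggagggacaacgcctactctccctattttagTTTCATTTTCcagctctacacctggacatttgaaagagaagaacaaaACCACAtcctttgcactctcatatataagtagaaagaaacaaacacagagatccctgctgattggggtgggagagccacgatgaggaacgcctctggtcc
Gzmb: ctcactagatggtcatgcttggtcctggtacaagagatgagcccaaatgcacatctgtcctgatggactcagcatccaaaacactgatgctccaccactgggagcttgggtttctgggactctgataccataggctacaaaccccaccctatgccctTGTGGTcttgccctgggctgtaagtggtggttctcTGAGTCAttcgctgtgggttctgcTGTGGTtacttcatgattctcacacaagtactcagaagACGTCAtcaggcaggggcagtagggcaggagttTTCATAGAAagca
The Gzmb window held 2 Runx matches, beginning 93 and 34 bases before the start, an AP-1 match 58 bases before it, a CRE-type match 4 bases after it on the other strand and a GAS match 37 bases after it. The Gzma window held a Runx match 50 bases before the start and an ISRE core 97 bases before it, both on the other strand. None of these matches overlapped another. Of 32851 promoter windows, 16.8% held the Runx motif, 7.81% the AP-1 motif, 7.51% the CRE-type motif and 8.30% the GAS motif. The ISRE core was held by 3.44% and the exact letters TATAAA by 13.6%. Neither granzyme window held those exact letters, and variants of the core promoter element were not searched. No Runx, AP-1, TATAAA or ISRE match was found in the windows of Cd3e, Cd3g, Cd3d and Cd8a. Cd3e held a CRE-type match and Cd3d a GAS match. These matches describe letters and not bound sites.

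None of the T cell receptor genes among the members was called with DSS. Cd3e, Cd3g and Cd3d encode the CD3 chains, which carry the signal of both alpha beta and gamma delta receptors, and they lie beside one another on mm10 chromosome 9, Cd3g from 44969572 to 44980431, Cd3d from 44981786 to 44987339 and Cd3e from 44998740 to 45009627. Cd3e was at 0.810, 1.02, 1.13 and 1.16 FPKM in cKO_DSS (49, 65, 73 and 75 reads), against 0.546, 1.09, 0.180 and 0.564 FPKM in cKO (34, 68, 10 and 32 reads). The groups overlapped through cKO 2, and cKO 3 was far below the rest. The log2 fold change was +0.37 ± 0.16 SE and did not pass (limma adjusted p = 0.132). Without cKO 2 it passed, at +0.51 (limma adjusted p = 0.0403, over alternatives 0.0403 to 0.965). In WT_DSS Cd3e was at 0.919, 1.07, 0.593 and 1.10 FPKM against 0.967, 0.818, 0.623 and 0.837 FPKM in WT, which overlapped, with a log2 fold change of +0.08 ± 0.16 SE that became -0.0869 after a GC correction and -0.28 with the Y-linked covariate.

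Cd3g ranged from 0.391 to 0.989 FPKM in cKO_DSS against 0.572 to 1.44 FPKM in cKO, and from 0.505 to 0.995 FPKM in WT_DSS against 0.614 to 1.43 FPKM in WT. Its log2 fold change with DSS was -0.04 ± 0.17 SE in cKO and -0.25 ± 0.17 SE in WT without a filter, and -0.11 and -0.56 with voom, none of them called. Cd3d ranged from 0.529 to 0.892 FPKM in cKO_DSS against 0.567 to 0.975 FPKM in cKO, and from 0.422 to 0.915 FPKM in WT_DSS against 0.258 to 1.29 FPKM in WT. Its log2 fold changes were -0.02 ± 0.16 SE and -0.08 ± 0.16 SE. Trdc ranged from 0.245 to 0.558 FPKM in cKO_DSS against 0.220 to 0.323 FPKM in cKO, and from 0.216 to 0.356 FPKM in WT_DSS against 0.121 to 0.398 FPKM in WT. With 58 to 86 reads of Trdc per group in all, the log2 fold changes of +0.11 ± 0.08 SE in cKO and +0.02 ± 0.08 SE in WT were not called.

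Set against the CD3 chains within the same library, the granzymes were higher with DSS. This ratio was chosen after the values were seen and is given as a description. The sum of Gzma and Gzmb over the sum of Cd3e, Cd3g and Cd3d, both in FPKM, was 8.64, 6.42, 6.91 and 5.20 in cKO_DSS, against 4.36, 3.48, 4.11 and 3.98 in cKO. It was 5.51, 6.13, 5.37 and 6.51 in WT_DSS, against 3.62, 3.40, 2.09 and 3.91 in WT. All 8 DSS libraries lay above all 8 water libraries. This separation depended on the denominator: over Cd8a the granzyme sum was 5.15 to 7.26 in cKO_DSS against 4.25 to 6.45 in cKO, which overlapped through cKO 4, and 5.12 to 7.21 in WT_DSS against 3.96 to 4.84 in WT. The CD3 sum itself overlapped, at 1.94 to 2.86 FPKM in cKO_DSS, 1.97 to 2.50 FPKM in WT_DSS, 1.42 to 3.51 FPKM in cKO and 2.12 to 3.35 FPKM in WT, and rested on 54 to 167 reads per library.

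**Figure D3:**
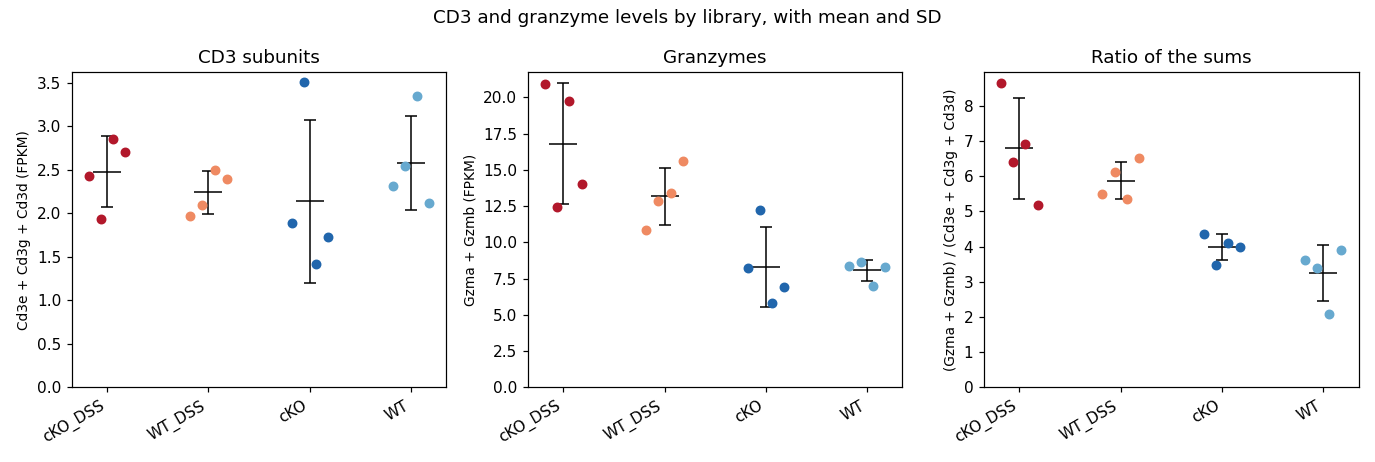
Summed level of the CD3 chains, summed level of the granzymes (both in FPKM) and the ratio of the sums (y axes, from 0) in each library, by group (x axis), with mean and SD of 4 libraries. The CD3 sums overlap between groups, whereas the ratio is 5.20 or more in the DSS libraries and 4.36 or less in the water libraries.

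Cd8a, the alpha chain of the CD8 co-receptor, was at 2.95, 2.005, 2.72 and 2.72 FPKM in cKO_DSS (159, 114, 156 and 157 reads), against 1.73, 2.85, 1.37 and 1.07 FPKM in cKO (96, 158, 68 and 54 reads). cKO 2 was as high as the cKO_DSS libraries and the other cKO libraries were lower than all of them. The log2 fold change of +0.42 ± 0.17 SE did not pass (limma adjusted p = 0.12), and without cKO 2 it was +0.59 (limma adjusted p = 0.0217, over alternatives 0.0217 to 0.939), so that the members called with DSS in cKO numbered 4 without that library. In WT_DSS Cd8a was at 1.72 to 3.05 FPKM against 1.69 to 2.12 FPKM in WT, with a log2 fold change of +0.10 ± 0.17 SE. With the Y-linked covariate both values were below 0, at -0.07 in cKO and -0.33 in WT. Cd8b1, the beta chain found with CD8 alpha on conventional cytotoxic T cells, was below Cd8a in mean level in every group, at 0.97 FPKM in cKO_DSS, 0.69 in WT_DSS, 0.50 in cKO and 0.41 in WT.

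Itgae encodes the CD103 chain that binds E-cadherin. It was at 2.03, 0.977, 2.01 and 2.13 FPKM in cKO_DSS against 1.07, 2.95, 2.01 and 1.73 FPKM in cKO, and at 1.94, 2.08, 1.65 and 1.94 FPKM in WT_DSS against 1.53, 2.34, 1.88 and 1.01 FPKM in WT. Groups overlapped throughout, and the log2 fold changes with DSS of -0.06 ± 0.20 SE in cKO and +0.13 ± 0.20 SE in WT were not called. Cd7, a T cell surface glycoprotein, was at 3.57, 3.61, 5.60 and 4.96 FPKM in cKO_DSS against 3.81, 3.82, 1.95 and 4.32 FPKM in cKO. In WT_DSS it was at 3.12, 3.44, 4.34 and 3.10 FPKM against 4.07, 3.05, 4.72 and 5.32 FPKM in WT. Its log2 fold changes with DSS, +0.30 ± 0.19 SE in cKO and -0.22 ± 0.19 SE in WT, were not called. Reads of both genes carry an uncertainty, since Haspin lies within Itgae on the other strand with 2426 reads over the 16 libraries, and the antisense gene Gm11775 overlaps Cd7 with 702 reads against 1068 for Cd7. The counting is not stated to use strand.

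Genotype after DSS asks whether Rictor loss in the epithelium alters these markers during colitis. No member was called, where 3.70% of the genes kept were called in either direction, and all 10 overlapped between the genotypes, where 5.12% of genes lay wholly higher and 4.88% wholly lower. Gene by gene, 9 of the 10 had a log2 fold change above 0 and Itgae one below 0, none of them past the threshold. These signs are not independent of each other, since single libraries moved most members together, as given below. The largest log2 fold change was that of Ccl5, the chemokine RANTES, which T cells and killer cells secrete and which draws in further leukocytes. Ccl5 was at 9.13, 8.13, 17.2 and 12.4 FPKM in cKO_DSS (130, 122, 260 and 188 reads), against 4.50, 5.58, 10.1 and 6.02 FPKM in WT_DSS (60, 77, 140 and 84 reads). WT_DSS 3 lay within the range of cKO_DSS, and the other WT_DSS libraries lay below it. The log2 fold change was +0.75 ± 0.27 SE (limma adjusted p = 0.127, over alternatives 0.0535 to 0.639), and without cKO_DSS 3 and 4 it was +0.40. On water Ccl5 was at 8.05, 14.7, 5.90 and 8.46 FPKM in cKO against 7.25, 11.3, 10.2 and 9.21 FPKM in WT. DSS against water gave +0.32 ± 0.27 SE in cKO and -0.51 ± 0.27 SE in WT, and the test of the difference between them, +0.83 ± 0.38 SE, did not pass (limma adjusted p = 0.203). The comparisons of DSS with water and of genotypes after DSS share the DSS libraries.

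Gzmb after DSS was 7.44 ± 1.05 FPKM in cKO_DSS and 5.67 ± 1.02 FPKM in WT_DSS (SD, n = 4 each), with a log2 fold change of +0.34 ± 0.19 SE (limma adjusted p = 0.327). Gzma was 9.36 ± 3.39 FPKM in cKO_DSS and 7.504 ± 1.15 FPKM in WT_DSS (+0.24 ± 0.21 SE, limma adjusted p = 0.555). The difference in Gzmb means was larger than the SD of either group and that in Gzma means was smaller than the SD of cKO_DSS, and neither passed the test. Their interactions of genotype and DSS were +0.21 ± 0.27 SE and +0.34 ± 0.29 SE, not called. Over all genes the interaction called 0.151%, and no member was among them.

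On water, no member was called between genotypes, where 0.0905% of the genes kept were called. Log2 fold changes of the 7 kept members ran from -0.26 ± 0.19 SE for Cd7 to +0.13 ± 0.19 SE for Gzmb, and all 10 members overlapped between the groups, where 7.85% of genes lay wholly higher and 7.65% wholly lower. With voom, Cd3e had the largest difference, -0.66, and was not called (limma adjusted p = 0.37). The genotype call count of members stayed at 0 without any 1 library.

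**Figure D4:**
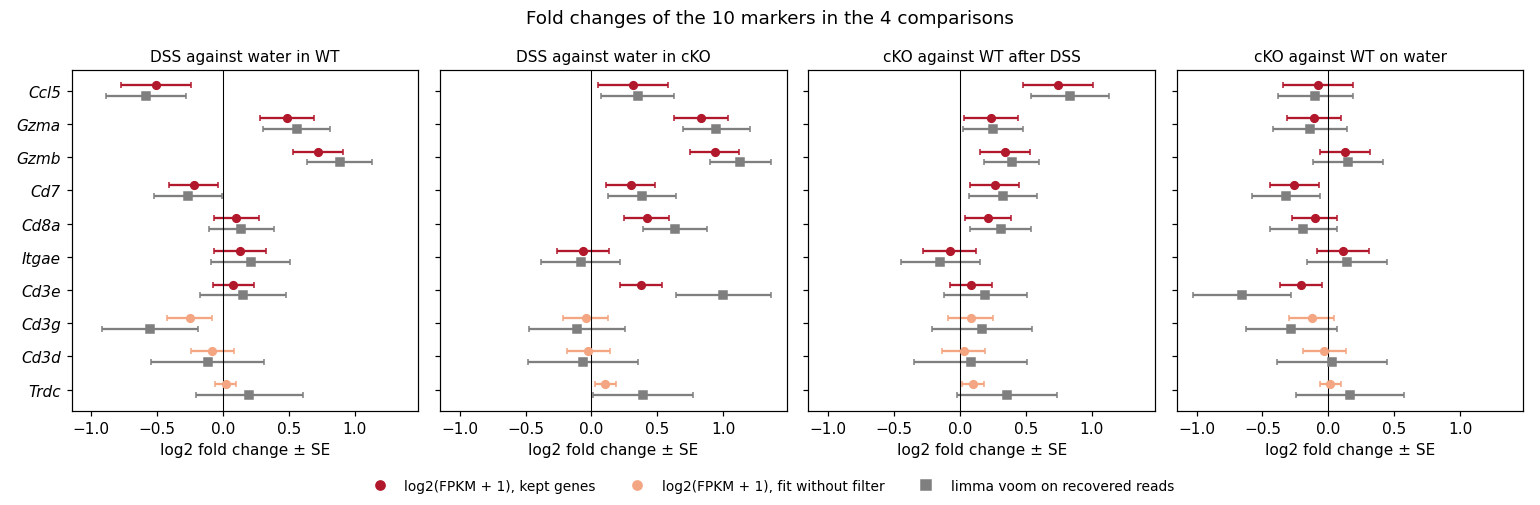
Log2 fold change ± SE (x axis) of the 10 markers (rows, by level) in 4 comparisons (panels). Red circles are from log2(FPKM + 1) for genes kept by the filter, pale circles from the same scale without a filter, and grey squares from limma voom on recovered reads. In the first 2 panels Gzmb lies farthest to the right on the FPKM scale, at +0.72 in WT and +0.94 in cKO.

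Single libraries moved most members together. cKO 2 was the highest cKO library for 8 of the 10 members, and above its group mean for 9. cKO_DSS 2 was below its group mean for all 10 and lowest for 7, whereas cKO_DSS 3 was above its group mean for all 10. Within groups, the 21 pairs of the 7 kept members had correlations of their deviations from the group mean between -0.17 and 0.79, with a median of 0.45 and 20 above 0, over 16 libraries that share depth and preparation. Cd8a and Gzmb had the highest, and Cd7 and Itgae the lowest. Beside cKO 2, the summed level of the other T cell receptor genes was 13.2 to 23.3 FPKM among cKO libraries, with cKO 2 at the top. The part of preparation, depth or library in these shared deviations was not tested.

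**Figure D5:**
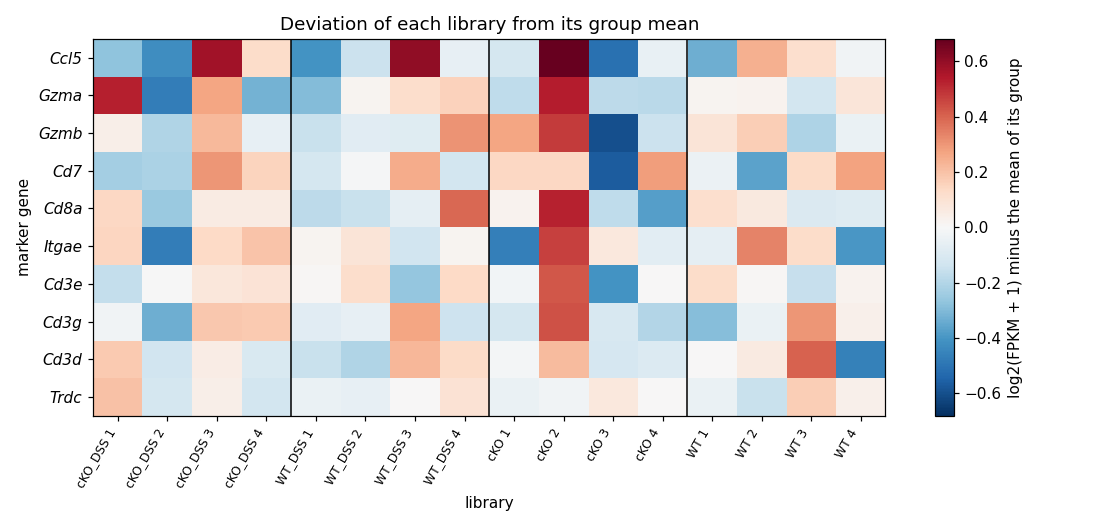
Deviation of log2(FPKM + 1) from the group mean (colour, red above and blue below) for each marker (rows, by level) in each library (columns, separated by group). The column of cKO 2 is red in 9 rows, that of cKO_DSS 2 is blue in all rows and that of cKO_DSS 3 is red in all rows.

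By the same deviations, the 8 protein-coding genes outside the gene lists most like the members, by correlation with their mean scaled deviation over the 16 libraries, were Ppp1r15a (r = 0.92), Esrp2 (0.83), Ptgr2 (0.83), Adprh (0.82), Coro1a (0.82), Mafk (0.81), Gpaa1 (0.81) and Mapt (0.81). Ppp1r15a is a regulator of the stress response phosphatase, Esrp2 an epithelial splicing factor, and Coro1a an actin-binding protein of leukocytes. Their mean levels ran from 0.895 FPKM for Mapt to 22.1 FPKM for Esrp2. These are the extremes of all genes kept and are given as a description.

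Other genes of the pathway were read from lists. Of 23 further T cell receptor and signalling genes in the table, 7 were kept, and Lck, the kinase that starts receptor signalling, fell with DSS in WT (log2 fold change -0.33 ± 0.09 SE, limma adjusted p = 0.0177), to 1.51 FPKM in WT_DSS against 2.16 FPKM in WT. Tcf7, a transcription factor of naive and memory T cells that crypt epithelium also expresses, fell with DSS in cKO (-0.34 ± 0.11 SE, limma adjusted p = 0.046). Lck was the only 1 of the 7 called with DSS in WT, and Tcf7 the only 1 in cKO. Of all genes kept, 28.5% in WT and 14.7% in cKO were called in either direction. The list's median log2 fold change was +0.21 with DSS in cKO and -0.21 in WT, beside -0.01 over all genes kept in each. Trbc1, a constant region of the receptor beta chain, was at 2.51 FPKM in cKO_DSS against 1.56 FPKM in WT_DSS (+0.50 ± 0.21 SE, limma adjusted p = 0.187). No gene of this list was called between genotypes, where 3.70% of all genes kept were called after DSS and 0.0905% on water.

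Of 27 genes of cytotoxic granules and killer cell receptors, 8 were kept. With DSS in WT 2 rose, a share near that over all genes kept (15.0% higher and 28.5% in either direction): Serpinb9, an inhibitor of granzyme B (2.67 FPKM in WT_DSS against 1.01 FPKM in WT, +0.85 ± 0.17 SE, limma adjusted p = 0.00399), and Srgn, the serglycin core protein that packs granzymes in granules (1.94 FPKM in WT_DSS against 0.90 FPKM in WT, +0.60 ± 0.19 SE, limma adjusted p = 0.0287). In cKO they were at +0.46 ± 0.17 SE and +0.47 ± 0.19 SE. None of the 8 was called there, where 14.7% of all genes kept were called in either direction. Prf1, perforin, which lets granzymes enter target cells, lay at 0.12 FPKM in cKO_DSS, 0.11 in WT_DSS, 0.19 in cKO and 0.08 in WT, under the filter. Gzmk, a granzyme of other T cells, lay at 0.67 FPKM in cKO_DSS, 0.29 in WT_DSS, 0.17 in cKO and 0.19 in WT, also under it.

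Of 24 genes of homing, residency and interleukin 15 signalling, 5 were kept. With DSS 1 of them was called higher in cKO and 2 in WT, where 8.07% and 15.0% of all genes kept were. Il2rb, the receptor beta chain shared by interleukins 2 and 15, rose in both genotypes, to 1.66 FPKM in cKO_DSS against 0.77 FPKM in cKO (+0.58 ± 0.14 SE, limma adjusted p = 0.0128) and to 1.26 FPKM in WT_DSS against 0.70 FPKM in WT (+0.42 ± 0.14 SE, limma adjusted p = 0.0385). Ahr, the aryl hydrocarbon receptor that intraepithelial lymphocytes need and that other cells also express, rose in WT (+0.46 ± 0.13 SE, limma adjusted p = 0.0163). Zfp683, a residency factor, and S1pr1, a receptor for exit from tissue, lay at 0.0853 FPKM or less in every group mean.

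Genes listed for the epithelium's side of the contact had a higher summed level than the members, a large part of it from Cdh1. Which cells these transcripts came from was not tested. Of 26 genes that bind, feed or attract intraepithelial lymphocytes, 21 were kept, 4 rose with DSS in cKO and 7 in WT, and none fell, where 8.07% and 15.0% of all genes kept were called higher. The list's median log2 fold changes were +0.15 and +0.17. Cxcl10 and Cxcl9, chemokines induced by interferon gamma that draw T cells through CXCR3, rose most in both genotypes. In WT Cxcl10 rose to 13.9 FPKM in WT_DSS against 1.33 FPKM in WT (+2.58 ± 0.28 SE, limma adjusted p = 6.67e-05) and Cxcl9 to 3.11 FPKM in WT_DSS against 0.327 FPKM in WT (+1.63 ± 0.18 SE, limma adjusted p = 9.11e-05). In cKO Cxcl10 rose to 9.96 FPKM in cKO_DSS against 3.32 FPKM in cKO (+1.40 ± 0.28 SE, limma adjusted p = 0.00483), and Cxcl9 to 1.498 FPKM in cKO_DSS against 0.31 FPKM in cKO (+0.87 ± 0.18 SE, limma adjusted p = 0.00627). Cxcl16, the ligand of CXCR6, rose by 0.47 ± 0.10 SE and the butyrophilin-like gene Btnl2 by 0.39 ± 0.12 SE on the log2 scale in cKO. In WT, Cxadr, an adhesion protein of tight junctions, rose by 0.59 ± 0.13 SE and the mucosal chemokine Ccl28 by 0.55 ± 0.15 SE. Between genotypes after DSS 2 of the 21 were called, both lower, where 3.70% of all genes kept were called in either direction. They were Cxcl9 at 1.498 FPKM in cKO_DSS against 3.11 FPKM in WT_DSS (-0.77 ± 0.18 SE, limma adjusted p = 0.034) and Cd1d1, which presents lipids to T cells (-0.48 ± 0.13 SE, limma adjusted p = 0.0496). Cdh1, E-cadherin, the ligand of CD103, stood at 363 FPKM in cKO_DSS, 323 in WT_DSS, 314 in cKO and 309 in WT, and Il15, the survival cytokine, at 5.06, 6.23, 6.36 and 6.77 FPKM in the same groups.

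Genes listed as markers of other cells moved with DSS as well. Of 19 myeloid genes 5 were kept, and in cKO 3 rose and none fell, and in WT 3 rose and 2 fell, where 14.7% and 28.5% of all genes kept were called in either direction. Lyz2 was at 4.81 FPKM in cKO_DSS against 2.14 FPKM in cKO (+0.84 ± 0.25 SE) and at 4.91 FPKM in WT_DSS against 1.67 FPKM in WT (+1.15 ± 0.25 SE). C1qb was higher with DSS in cKO (+0.58 ± 0.16 SE) and in WT (+0.79 ± 0.16 SE), and so was Cd14 (+0.69 ± 0.15 SE and +0.76 ± 0.15 SE). Ly6g fell in WT (-0.59 ± 0.18 SE) and was not called in cKO. The summed level of that list was mostly Cd14 and Ly6g, and which cells these transcripts came from was not tested. Other myeloid markers were near 0, with Csf1r at 0.43 FPKM or less and Adgre1 at 0.158 FPKM or less in every group mean. The sum was 119.7 to 151.5 FPKM in cKO_DSS, 101.7 to 116.9 in WT_DSS, 95.95 to 105.6 in cKO and 93.5 to 99.7 in WT. The stromal and endothelial sum of 10 genes was 6.20 to 8.46 FPKM in cKO_DSS, 9.02 to 10.4 in WT_DSS, 4.11 to 4.82 in cKO and 3.21 to 4.54 in WT, with Col3a1 higher with DSS in cKO (+0.74 ± 0.11 SE) and in WT (+1.24 ± 0.11 SE). The neutrophil genes S100a8 and S100a9 lay at 0.0994 FPKM or less in every group mean. Cd4, the co-receptor of helper T cells, lay at 0.0916 FPKM or less in every group mean. B and plasma cell genes summed to 10.9 to 21.2 FPKM in cKO_DSS, 16.7 to 28.0 in WT_DSS, 15.4 to 46.5 in cKO and 8.38 to 36.6 in WT, mostly from Igkc. Their part in the granzyme result was not tested.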

How the data were processed

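RNA sequencing of total RNA from mouse colonic epithelial cells gave 16 libraries, and groups and replicate numbers come from the labels. The deposited values are FPKM made by the authors, and the submitters' processing notes name featureCounts 1.5.0-p3 and the mm10 build. Reads with adapters, undetermined bases or low quality had been removed, per the labels' protocols. The aligner, annotation and strand setting are not stated in the labels or headers. FPKM times gene length fell on a grid of equal steps within a library, which gave back reads (tolerance 0.05). Values were analysed as log2(FPKM + 1) for the 13255 genes that reached 1 FPKM in 4 or more libraries. Limma 3.58.1 in R 4.3.3 fitted 4 group means to all 16 libraries, with two-sided tests adjusted by the Benjamini-Hochberg method over all genes within each of 5 comparisons, called under 0.05. The fit was tested on simulated data with known changes, for DSS against water in WT. It recovered 29.1% of 1.5-fold, 87.3% of 2-fold and 100% of 4-fold changes, with 7 false calls among 131. The simulation set the same extra spread for every gene and no deviations shared between genes, unlike these data.

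Members and the 10 other gene lists were chosen with earlier results of these data known. Named genes were all members, in each list the called genes with the smallest p (up to 4) or, where none was called, the 2 with the smallest p, the 3 most abundant genes of a marker list, and the 8 genes most like the members. Genes named for other reasons were chosen after their values were seen. Alternatives were a smaller pseudocount (0.1), leaving the filter out or lowering it to 0.1 FPKM, shifted medians, limma voom with trimmed mean scaling on recovered reads (15811 genes with at least 10 reads in at least 4 libraries), a replicate block, only the groups compared, leaving out libraries, a Y-linked covariate and a GC correction (longest GENCODE M21 transcript, known for 97.1% of kept genes, loess span 0.5). Leaving out WT 3, cKO 3 and cKO 4 was chosen after seeing the data. Tcrg-C1, Tcrg-C2, Tcrg-C4 and Raet1a were not matched in the table by name. The helper and regulatory T cell list is not reported here.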

Additional observations from a re-analysis of the deposited data

Results flagged for a closer look

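4 of 40 sets of 4 values (10 members in 4 groups) held 1 library far from the other 3, and chance flags about 1 in 20 such sets. Cd3g was 1.44 FPKM and Gzma 7.10 FPKM in cKO 2, above the other cKO libraries. Itgae was 0.977 FPKM in cKO_DSS 2, below the other cKO_DSS libraries. Gzmb was 7.19 FPKM in WT_DSS 4, above the other WT_DSS libraries.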

How the results depend on the processing

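Of the alternative values computed for the members' fold changes, 967 kept their direction and side of the threshold. A further 26 turned sign, 7 lost a call and 3 gained one. Counts of calls are not among these and were held to be unchanged within 1.5 times. The cause of each change below was not tested. With the Y-linked covariate 193 genes and 0 members were called with DSS in WT, 94 genes and 0 members in cKO, and 7 genes in the interaction. Without WT 3, cKO 3 and cKO 4 the genes called were 1779 with DSS in WT, 567 in cKO (0 members), 255 between genotypes after DSS, 1 on water and 0 in the interaction. Without WT 4 and WT_DSS 2 they were 1452 with DSS in WT (0 members), 117 between genotypes after DSS and 0 in the interaction, and without cKO_DSS 3 and 4 they were 33 and 0. With only the groups compared, which gives no interaction, members called were 2 with DSS in WT and 1 in cKO, and genes called were 96 after DSS and 6 on water. With no filter 209 genes were called after DSS, 2 on water and 4 in the interaction, and 6 in the interaction with a filter at 0.1 FPKM. On water and in the interaction 20 and 36 genes were called with shifted medians, 26 and 70 with voom, and 9 in the interaction after GC correction. With the replicate number as a block 2 and 13 were called. The numbers were not taken as pairs, since not every correlation was over 0.1 (24 same-numbered pairs, correlations of deviations -0.20 to 0.30, 6 over 0.1, and 9 of 16 libraries correlating best with their own number, a hint of pairing from the data and not the design). Leaving out 1 library gave 2240 to 4258 genes with DSS in WT, 1305 to 2153 in cKO, 78 to 886 between genotypes after DSS, 2 to 111 on water and 0 to 1240 in the interaction, and 1 and 2 to 4 members with DSS in WT and cKO. Signs turned for values that were not called. With the Y-linked covariate Cd3e was -0.284 in WT and -0.0446 in cKO, Cd8a -0.327 and -0.0748, and Ccl5 -0.0225 in cKO, and Cd3e was -0.0869 in WT after GC correction. Ccl5 with DSS in cKO was -0.0299 without cKO_DSS 3 and 4. On water, without WT 3, cKO 3 and cKO 4, Cd8a was 0.139, Gzma 0.0309 and Ccl5 0.239, and the Gzmb interaction was -0.0904. Cd3d on water was 0.0309 with voom, and Itgae was -0.0322 with DSS in WT and -0.0197 on water without WT 4 and WT_DSS 2. Leaving out 1 library gave ranges across 0 for Ccl5 (-0.308 to 0.0892), Cd8a (-0.277 to 0.0216), Gzmb (-0.0317 to 0.33) and Itgae (-0.0418 to 0.27) on water, for Cd8a (-0.0294 to 0.16) and Itgae (-0.0023 to 0.24) with DSS in WT, for Itgae with DSS in cKO (-0.22 to 0.0957), and for Cd3e (-0.0017 to 0.14) and Itgae (-0.14 to 0.0784) between genotypes after DSS. Few reads limit Cd3d and Trdc most.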
